A study of Mus musculus with 4 samples.

Results

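Interleukin 1, its decoys and antagonist, the inflammasome caspases and the enzymes of inflammatory lipid and itaconate synthesis were followed as a set of 10 genes through the bone marrow of myeloma-bearing mice. The set was chosen by symbol: Il1b, Il1a, Il1rn, Il1r2, Il1rap, Nlrp3, Casp1, Casp4, Ptgs2 and Acod1, 10 of the 32285 genes in the files. Their unique molecular identifiers (UMIs, 1 per captured transcript) were summed per library and cell type, and purinostat mesylate (PM), an inhibitor of class I and IIb histone deacetylases, was compared with vehicle. Levels are given as CPM, that is UMIs of the gene per 1000000 UMIs of the same cells.

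All mice carried the 5TMM myeloma model, in which 5TGM1 cells, a mouse myeloma line labelled with luciferase, grow in the marrow. The line was given intravenously to C57BL/KawRij mice at 6 weeks of age, and treatment followed 3 weeks later. There were 2 mice given vehicle and 2 mice given PM at 10 mg/kg, sampled at 24 h, with 1 droplet-based library of red-cell-lysed marrow per mouse. No mouse without myeloma and no other dose was analysed here, so the levels below describe marrow with tumor in both groups.

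The libraries held 8242 to 13848 barcodes and 69828595 to 109447030 UMIs, and 39743 cells were kept. Any pair of libraries shared 18 to 41 barcodes. PM 1 stood apart in the share of cells called as doublets, at 3.67% against 1.05% to 1.21% in the other libraries, and in its median mitochondrial share of 1.69% against 1.02% to 1.26%. Clusters were named from markers, with none of the 10 genes among the genes used for clustering, and 23655 cells were neutrophils, of which 12394 were named mature. Mature clusters 1, 2, 4 and 10 each had all 9 of the mature markers raised, and macrophages had all 10 of theirs. Fewer expressing cells and less RNA per cell cannot be told apart in sums of this kind.

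As background, IL-1β is made as an inactive precursor after a priming signal and is cut to its active form by caspase-1 once an inflammasome, such as that of NLRP3, assembles. Caspase-4 (the mouse protein is also called caspase-11) senses cytosolic lipopolysaccharide in the noncanonical route. IL-1α and IL-1β bind the signaling receptor together with the accessory protein IL1RAP, whereas IL1R2 is a decoy without signaling and IL1RN is the soluble antagonist. PTGS2 (COX-2) starts inducible prostaglandin synthesis and ACOD1 makes itaconate, and both are classical products of activated myeloid cells. Messenger RNA levels, as measured here, do not report the cutting or release of the protein.

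The genes lie on 6 chromosomes of GRCm38, in the GENCODE M21 annotation, and all 10 are protein-coding. Il1a (chromosome 2, 129299610 to 129309972) and Il1b (chromosome 2, 129364570 to 129371139) are neighbors on the minus strand with 54597 bases between them. Il1rn is on the plus strand of the same chromosome, at 24336853 to 24351494. Casp1 (chromosome 9, 5298517 to 5307265) and Casp4 (chromosome 9, 5308828 to 5336783) are adjacent on the plus strand and do not overlap. Il1r2 and Ptgs2 are on chromosome 1, at 40074079 to 40125231 and at 150100031 to 150108227. Il1rap is on chromosome 16 (26581704 to 26730117), Nlrp3 on chromosome 11 (59541568 to 59566956) and Acod1 on chromosome 14 (103046977 to 103056573). The antisense gene Il1bos overlaps Il1b and held 340 UMIs against 65153 of Il1b. Antisense Gm14023 over Il1a held 481 UMIs against 36 of Il1a. Gm16894 over Il1r2 held 581 against 18564, and Gm20319 over Il1rap held 5 against 6383. On its own strand Il1r2 is overlapped by Gm37347, which is not among the genes counted.

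The sequences upstream of Il1b, of Il1rn and of Ptgs2 are shown because these genes recur in the results below and differ in their levels across cells. Each is the 250 bases before a RefSeq start (GRCm38.p6), 5′ to 3′ on the gene's strand, with motif matches in capitals. RefSeq lists 3 starts for Il1rn, of which the first lies 7 bases and the second 8438 bases from the annotated start of the gene. The third window overlaps the second and is not shown. UMIs at the 3′ end do not tell these starts apart.
Il1b, chr2:129371140-129371389, minus strand: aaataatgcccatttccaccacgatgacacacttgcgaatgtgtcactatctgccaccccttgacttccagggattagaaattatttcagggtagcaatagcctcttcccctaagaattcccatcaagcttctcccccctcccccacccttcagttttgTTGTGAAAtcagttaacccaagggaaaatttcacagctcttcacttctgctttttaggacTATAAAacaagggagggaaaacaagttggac
Il1rn, first start, chr2:24336610-24336859, plus strand: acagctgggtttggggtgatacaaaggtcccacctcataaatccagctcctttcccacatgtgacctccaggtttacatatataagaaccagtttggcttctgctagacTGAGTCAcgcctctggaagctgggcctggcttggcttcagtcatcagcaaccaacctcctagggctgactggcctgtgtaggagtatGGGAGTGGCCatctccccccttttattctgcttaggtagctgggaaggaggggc
Il1rn, second start, chr2:24345041-24345290, plus strand: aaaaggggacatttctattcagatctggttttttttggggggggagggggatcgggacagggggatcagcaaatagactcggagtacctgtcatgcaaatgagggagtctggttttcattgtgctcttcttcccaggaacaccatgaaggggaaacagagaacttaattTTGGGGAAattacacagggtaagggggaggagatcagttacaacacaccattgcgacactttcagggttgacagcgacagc
Ptgs2, chr1:150099781-150100030, plus strand: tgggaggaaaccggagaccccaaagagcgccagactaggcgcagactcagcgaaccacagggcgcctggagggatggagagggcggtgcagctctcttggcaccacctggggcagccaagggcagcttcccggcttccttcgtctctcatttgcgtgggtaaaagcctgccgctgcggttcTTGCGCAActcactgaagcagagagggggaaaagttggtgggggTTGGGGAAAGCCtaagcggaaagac

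Capitals mark 6 patterns that were searched on both strands. The kB-like pattern, GGG and CC with 5 bases of any kind between them, was present before 6 of the 10 genes (Il1rn, Il1rap, Casp1, Casp4, Ptgs2 and Acod1) and in 45.8% of the 32851 windows of all genes. The C/EBP-like pattern TTNNGNAA was present before 5 genes (Il1b, Il1a, Nlrp3, Casp4 and Ptgs2) and in 36.8% of all windows. TATAAA was found before Il1b, Il1a and Acod1, and in 12.4% of all windows. The AP-1 pattern TGANTCA was found before Il1a and Il1rn, and in 6.75% of all windows. TGACGTCA (a cAMP response element) and the ISRE-like pattern, GAAA repeated after 2 bases of any kind, were found before none of the 10 and in 1.55% and 2.98% of all windows. In Ptgs2 a C/EBP-like match, TTGGGGAA, overlaps the kB-like match. These counts use 1 start per gene, and a match describes letters only.

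Il1b belonged to mature neutrophils. Of its 65153 UMIs, 89.1% were in mature neutrophils, which were 31.2% of the cells, and cluster 4 alone (6.09% of the cells) held 50.1%. In mature neutrophils the level of Il1b was 1060 CPM in vehicle 1, 1902 CPM in vehicle 2, 795 CPM in PM 1 and 1526 CPM in PM 2. The groups overlapped, and the 2 mice of each group differed from each other more than the group means did. Immature neutrophils held 11.6, 19.6, 9.94 and 13.8 CPM of Il1b in the same order of libraries, and B cells held 15.3, 33.3, 7.91 and 22.6 CPM.

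**Figure D1:**
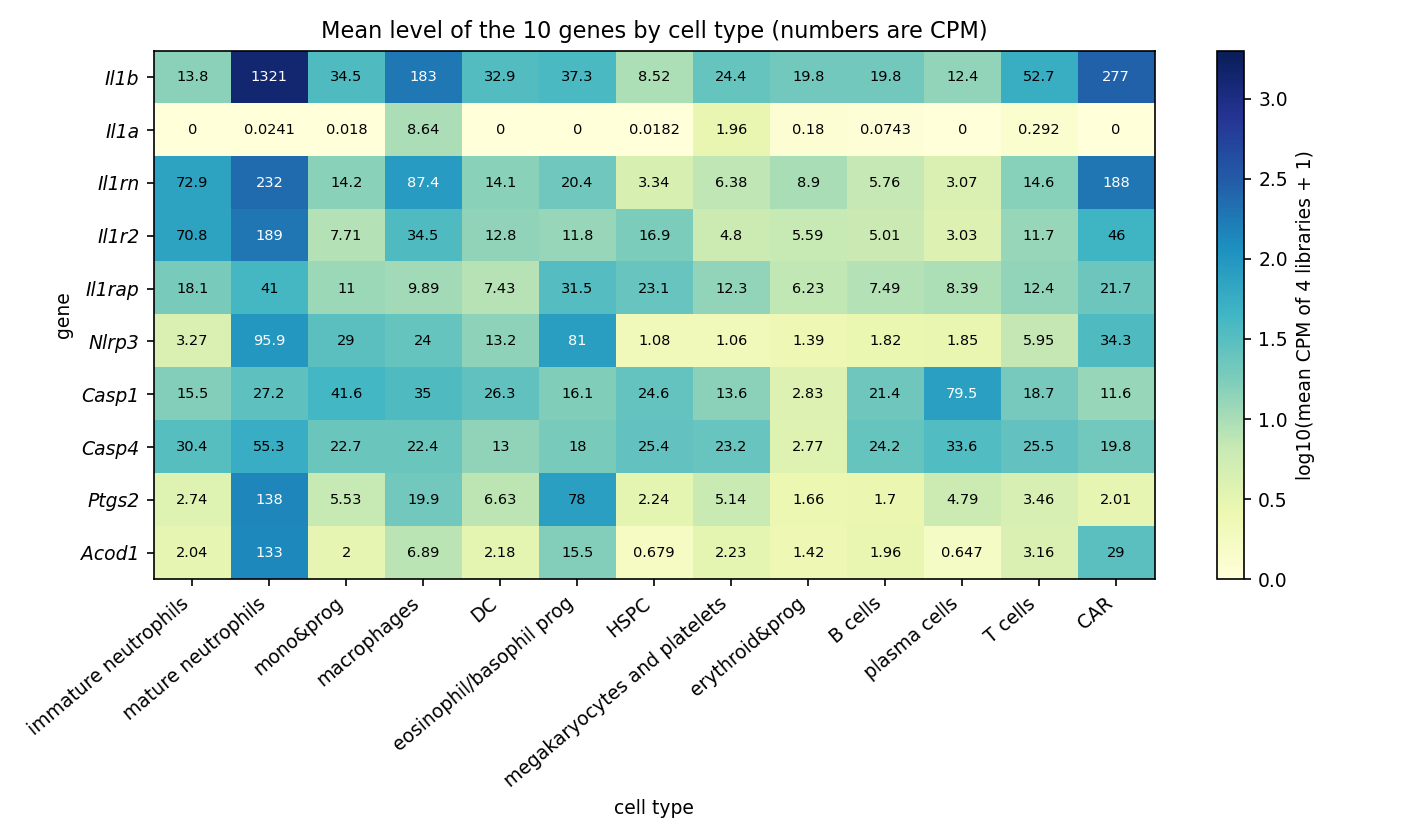
Mean CPM over the 4 libraries for each gene (rows) in each of 13 cell groups (columns), with color on a log10 scale. Read along a row: Il1b, Ptgs2 and Acod1 are highest in mature neutrophils, at 1321, 138 and 133 CPM, and Casp1 is highest in plasma cells, at 79.5 CPM.

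Within the mature neutrophils, clusters differed in Il1b far more than the groups did. Cluster 4 held 5393 and 7160 CPM in the vehicle mice and 3688 and 5958 CPM in the PM mice, and cluster 1 held 79.2, 102, 85.7 and 131 CPM. Il1b and Ptgs2 led cluster 4 although neither was used to find it, and Igfbp6, Hcar2 and Cxcl2, a neutrophil chemoattractant, were among its other leading genes. After each cell was thinned to 1000 UMIs, 93.3% of cluster 4 cells had an Il1b UMI, against 43.4% of mature neutrophils, 0.968% of immature neutrophils and 1.17% of B cells. B cells should lack the transcript and were taken as a guide to free RNA, and the share in immature neutrophils was not above theirs. The median depth was 2359 UMIs in B cells, 3278 in mature and 7367 in immature neutrophils. With depths this unlike, the shares do not show whether immature neutrophils held Il1b of their own, which was not tested.

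Ptgs2 and Acod1 had the same concentration in mature neutrophils, with 81.5% of 7299 UMIs and 91.3% of 7041 UMIs. Ptgs2 in mature neutrophils was 80.1 and 181 CPM in the vehicle mice and 90.3 and 202 CPM in the PM mice. Acod1 was 204 and 134 CPM in the vehicle mice and 49.1 and 145 CPM in the PM mice. For both genes the groups overlapped, and PM 1 had the lowest Acod1. Outside the neutrophils, Ptgs2 was highest in eosinophil/basophil prog cells, at 92.9 and 56.1 CPM with vehicle and 37.1 and 126 CPM with PM. In these progenitors Nlrp3 was at 102 and 103 CPM with vehicle and 38.1 and 80.9 CPM with PM, and neither gene was called there.

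Within mature neutrophils, Ptgs2 was found more often in the cells that also held Il1b. After thinning to 1000 UMIs, a Ptgs2 UMI was seen in 12.7%, 20.7%, 12.3% and 19.0% of Il1b-positive cells of vehicle 1, vehicle 2, PM 1 and PM 2. The shares among the other mature neutrophils were 1.71%, 2.89%, 2.75% and 4.23%. For Nlrp3 the shares were 11.1%, 17.3%, 15.7% and 18.5% in Il1b-positive cells, and 3.97%, 6.30%, 7.64% and 9.80% in the others. Il1rn differed less, with 17.8%, 20.7%, 23.9% and 24.7% in Il1b-positive cells and 14.2%, 14.9%, 21.9% and 27.6% in the others. The same split holds in all 4 libraries for Ptgs2 and Nlrp3, while for Il1rn its direction turned in PM 2.

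**Figure D2:**
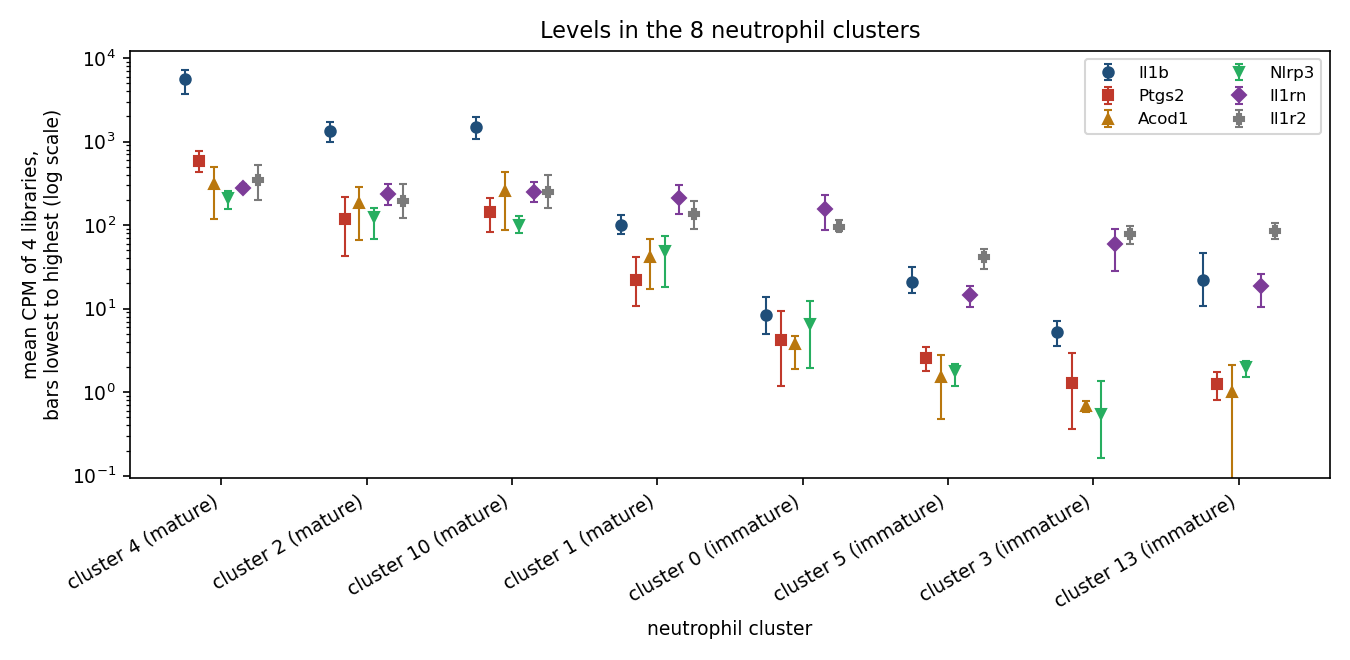
Mean CPM over the 4 libraries (points) with the lowest and highest library (bars) for 6 genes in the 8 neutrophil clusters, on a log axis; a bar that leaves the axis reaches 0. The means of Il1b, Ptgs2, Acod1 and Nlrp3 are lower in each of the 4 immature clusters than in any of the 4 mature ones, while the lowest library of Il1r2 is at 29.5 CPM, in cluster 5.

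The genes of the antagonist arm were spread more evenly. Il1rn had 51.4% of its 20219 UMIs in mature and 36.5% in immature neutrophils, and Il1r2 had 49.0% and 40.1% of 18564 UMIs. Il1rap, the accessory protein of several IL-1 family receptors, had 60.3% of 6383 UMIs in neutrophils and 14.9% in HSPC, which were 59.5% and 4.31% of the cells. Shares of UMIs also follow depth, and the median was 4816 UMIs in neutrophils and 21991 in HSPC. The pooled levels of Il1rap were 25.8 CPM in neutrophils and 22.9 CPM in HSPC. Nlrp3 had 61.4% of 7350 UMIs in neutrophils and 29.4% in mono&prog cells, which were 11.0% of the cells. Apart from Il1a, Casp1 was the gene least tied to neutrophils, with 32.0% of 8943 UMIs there, 36.3% in mono&prog cells and 10.2% in plasma cells. Casp4 had 58.8% of 9987 UMIs in neutrophils. Il1a was almost undetected, with 36 UMIs in all, of which 14 were in macrophages. No Il1a UMI was seen in immature neutrophils, which allows a level of up to 0.0291 CPM, and this limit covers counting error only.

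Over 48 sums (12 cell types in 4 libraries, which share their depth and free RNA), the genes most like Il1b in log2(CPM + 1) were Mirt2, Arg2, Fpr2, Chp1 and 6430548M08Rik. Their Pearson r with Il1b was 0.883, 0.879, 0.867, 0.859 and 0.858, among 10073 genes compared. Arg2 is an arginase and Fpr2 a receptor for formyl peptides. For Ptgs2 the nearest genes were Ccl3, a chemokine, with r of 0.763, Ccdc88b with 0.718, the cytokine gene Osm with 0.703, Pnpla7 with 0.698 and Plp2 with 0.692. Among the 10 genes, Il1rn had an r of 0.812 with Il1b, Acod1 0.759, Il1r2 0.728 and Ptgs2 0.340.

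PM was compared with vehicle for the question of how a histone deacetylase inhibitor changes inflammatory transcripts of the marrow. Over all cells together none of the 10 genes was called. Calling a gene required an edgeR quasi-likelihood p, adjusted by Benjamini-Hochberg, under 0.05 and an absolute log2 fold change over 0.5. That rule called 0.0128% of 15581 genes over all cells, 2 genes in all, while 1993 genes had an unadjusted p under 0.05. DESeq2 called 184 genes higher and 66 lower over all cells, and none of the 10. The tests by cell type below compare 2 with 2 mice. Where groups are said not to overlap, this describes the levels and is not a test. The share of all genes without overlap is not given.

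In neutrophils 9 of the 10 genes were tested, Il1a being too low, and 2 were called, beside 5.24% of the 12145 genes tested. In mature neutrophils 3 of 9 were called, beside 6.93% of 9914 genes. In immature neutrophils 2 of 9 were called, beside 5.81% of 11522 genes. The median log2 fold change of the 9 genes was -0.45 in all neutrophils, -0.43 in mature and -0.16 in immature neutrophils, where the medians of all genes tested were 0.0036, -0.00063 and -0.0033.

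**Figure D3:**
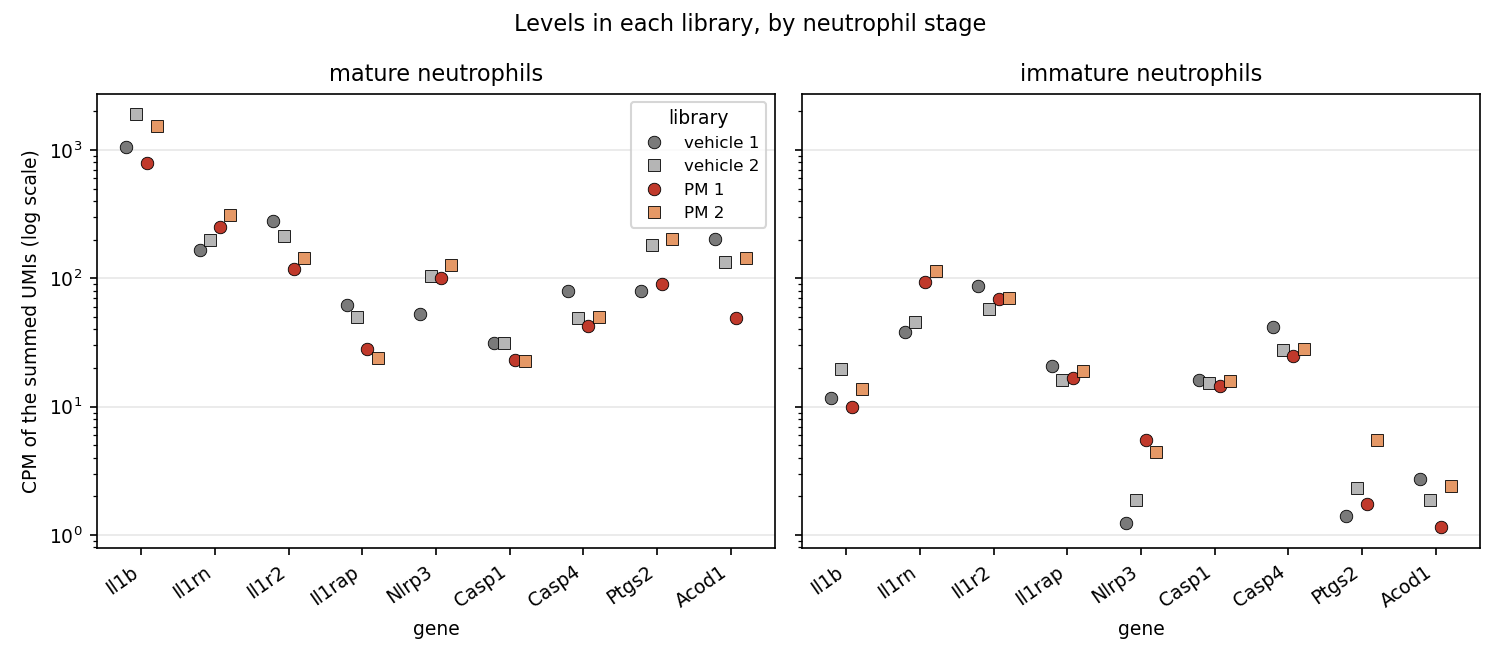
CPM of 9 genes in mature (left) and immature (right) neutrophils, on a shared log axis, with 1 point per library. Il1rn is higher in both PM libraries than in both vehicle libraries in either stage, Il1r2 and Il1rap are lower in both PM libraries in the mature panel and overlap in the immature panel, and the Il1b points of the groups overlap in both.

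Il1rn, the gene of the IL-1 receptor antagonist, rose in both stages. In mature neutrophils its level was 165 and 200 CPM with vehicle and 253 and 310 CPM with PM. The log2 fold change was 0.64 ± 0.14 (SE), with an edgeR adjusted p of 0.0366. In immature neutrophils it was 38.3 and 45.4 CPM with vehicle and 93.9 and 114 CPM with PM. There the log2 fold change was 1.21 ± 0.12, with an edgeR adjusted p of 0.000288. Over all neutrophils the log2 fold change was 0.79 ± 0.13, with an edgeR adjusted p of 0.0114, and 0.108 without vehicle 1, where the call was lost. The groups did not overlap in either stage. In immature neutrophils the call was kept under all 15 alternative settings, and in mature neutrophils it was lost without PM 1, without PM 2, without vehicle 1 and with a replicate block (edgeR adjusted p of up to 0.171).

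The rise of Il1rn was also called within 6 of the 8 neutrophil clusters. These were clusters 0, 1, 2, 3, 5 and 10, where the test called 6.28%, 6.07%, 4.25%, 3.75%, 3.15% and 1.72% of all genes. Cluster 13, not among them, held 15.1 and 10.4 CPM with vehicle and 23.9 and 25.9 CPM with PM, without overlap. In clusters 0 and 3 the call of Il1rn was kept whichever library was left out. It was lost in cluster 1 without vehicle 1, in clusters 2 and 10 without vehicle 1, without PM 1 or without PM 2, and in cluster 5 without vehicle 1, without vehicle 2 or without PM 1. Cluster 4, which held most Il1b, had 262 and 279 CPM of Il1rn with vehicle and 277 and 308 CPM with PM. Here the groups overlapped, and the log2 fold change was 0.25 ± 0.19, with an edgeR adjusted p of 0.485, in a cluster with 2.92% of all genes called.

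Il1r2, the decoy receptor, fell in mature neutrophils. Its level was 281 and 214 CPM with vehicle and 118 and 143 CPM with PM, without overlap. The log2 fold change was -0.92 ± 0.19, with an edgeR adjusted p of 0.0300. In immature neutrophils Il1r2 was 86.8 and 57.8 CPM with vehicle and 68.5 and 70.3 CPM with PM, and the groups overlapped. The fall in mature neutrophils was called within clusters 1, 2 and 10. These calls of Il1r2 were lost in cluster 1 without vehicle 1 or PM 1, in cluster 2 without PM 1 or PM 2, and in cluster 10 without vehicle 1. In cluster 4 the levels of 529 and 389 CPM with vehicle and 202 and 251 CPM with PM did not overlap, with an edgeR adjusted p of 0.0712. The call in mature neutrophils was lost without PM 1, without PM 2 and with a replicate block, where the edgeR adjusted p reached 0.183. Cluster 10, led by interferon-induced genes such as Ifit3b and Ifit1, was 5.68% and 3.46% of mature neutrophils under vehicle, against 15.5% and 13.8% under PM, so the mature class was made up differently in the groups. The part of this in the results for mature neutrophils as a whole was not tested.

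Il1rap fell in neutrophils. In mature neutrophils it was 61.5 and 50.4 CPM with vehicle and 28.3 and 23.8 CPM with PM, a log2 fold change of -1.09 ± 0.18 with an edgeR adjusted p of 0.0167. That call was lost without PM 1 and without PM 2, where the edgeR adjusted p reached 0.0785. Within mature clusters 2 and 4 both PM mice lay below both vehicle mice, whereas in clusters 1 and 10 the groups overlapped. Cluster 4 had the highest Il1rap, where the vehicle mice reached 176 and 162 CPM and the PM mice 127 and 59.3 CPM. Its share of mature neutrophils was 18.3% in vehicle 1, 30.5% in vehicle 2, 14.1% in PM 1 and 18.8% in PM 2. The part of that share in the fall of Il1rap was not tested. For immature neutrophils the Il1rap levels of 20.7 and 16.0 CPM (vehicle) and 16.7 and 19.0 CPM (PM) overlapped. The same held in each immature cluster. Over all neutrophils the log2 fold change was -0.67 ± 0.15, with an edgeR adjusted p of 0.0425. The call over all neutrophils was lost without vehicle 1, without PM 1 and without PM 2 (edgeR adjusted p of up to 0.206). The share of mature cells among neutrophils, 55.8% and 53.8% with vehicle and 48.9% and 52.0% with PM, moved in the same direction, and its part in the result over all neutrophils was not tested.

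Nlrp3, the sensor of the inflammasome, rose in immature neutrophils from a low level. It was 1.24 and 1.86 CPM with vehicle and 5.51 and 4.45 CPM with PM, a log2 fold change of 1.62 ± 0.28 with an edgeR adjusted p of 0.00673. B cells, which should hold little Nlrp3, had 0 and 1.19 CPM with vehicle and 3.46 and 2.64 CPM with PM. This was the same direction at a lower level, and the part of free RNA in the rise was not tested. Among the immature clusters, cluster 0 held 1.93 and 3.26 CPM of Nlrp3 with vehicle and 12.4 and 8.92 CPM with PM. Clusters 3, 5 and 13 held at most 2.39 CPM in any library, and in clusters 3 and 13 the groups overlapped. In mature neutrophils Nlrp3 was 52.6 and 103 CPM with vehicle and 101 and 127 CPM with PM. The groups overlapped, and the edgeR adjusted p was 0.253. Within mature clusters 1, 2 and 10 PM was higher without overlap, and in cluster 4 the groups overlapped. These clusters come from the same mice and do not repeat the comparison. Cluster 1 held 18.0 and 41.0 CPM with vehicle and 62.6 and 73.4 CPM with PM. Over all neutrophils Nlrp3 was 18.6 and 31.3 CPM with vehicle and 31.8 and 44.1 CPM with PM. These did not overlap, but the edgeR adjusted p was 0.317. In the other clusterings tried, the immature class held 7158, 7295 and 7611 cells, against 11261 here. The part of this change of class in the call was not tested. The call in immature neutrophils was lost without vehicle 1, without PM 1 and under 3 other clusterings, where the edgeR adjusted p reached 0.397.

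No change of Il1b was called in neutrophils. Its log2 fold change was -0.33 ± 0.36 in mature neutrophils, with an edgeR adjusted p of 0.607, and -0.23 ± 0.27 in cluster 4, with 0.668. Vehicle 2, the library with the highest Il1b, also had the largest share of cluster 4 among its mature neutrophils, at 30.5%, against 18.3% in vehicle 1, 14.1% in PM 1 and 18.8% in PM 2. The part of that share in its level was not tested. Within clusters 1, 2 and 10 the log2 fold changes of Il1b were 0.27, 0.19 and 0.06, and none was called. After thinning to 1000 UMIs, an Il1b UMI was present in 21.3% and 27.7% of all neutrophils under vehicle, against 19.5% and 26.4% under PM. The means differed by -1.55 percentage points, less than the spread within a group, and the smallest two-sided p of an exact permutation test with 2 against 2 mice is 0.33. Without thinning, the vehicle libraries had 29.8% and 35.1%, and the PM libraries 27.5% and 34.8%.

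Casp1, Casp4, Ptgs2 and Acod1 were not called in either stage. Casp1 in mature neutrophils was 31.3 and 31.4 CPM with vehicle and 23.2 and 22.9 CPM with PM. These groups did not overlap, but the edgeR adjusted p was 0.104. Casp4 was 80.3 and 48.7 CPM with vehicle and 42.2 and 50.03 CPM with PM. The log2 fold changes of Ptgs2 and Acod1 were 0.20 ± 0.52 and -0.81 ± 0.56, with edgeR adjusted p of 0.847 and 0.426.

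**Figure D4:**
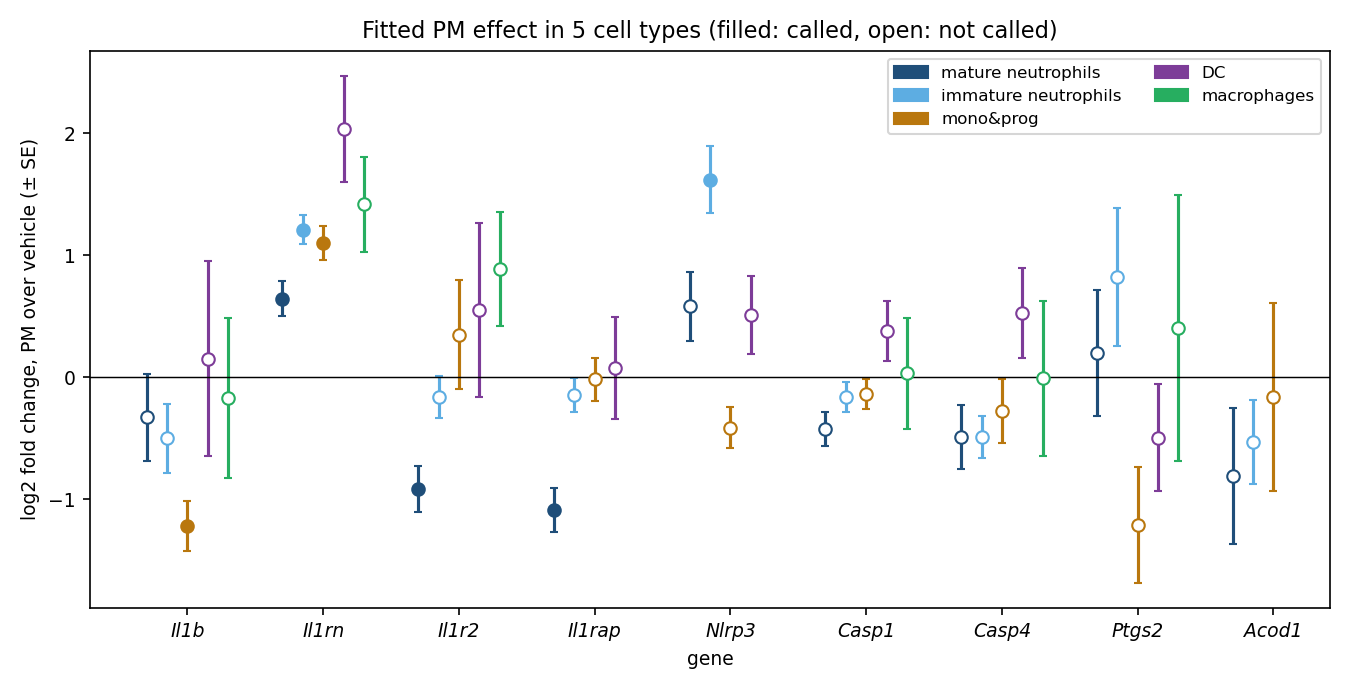
Fitted log2 fold change of PM over vehicle (points, bars are ± 1 SE) for 9 genes in 5 cell types; filled points were called and genes not tested in a type have no point. Il1rn lies above 0 in all 5 types, from 0.64 in mature neutrophils to 2.03 in DC, and is filled in 3 of them.

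In mono&prog cells 9 of the 10 genes were tested and 2 were called, beside 1.47% of 12225 genes. The median log2 fold change of the 9 was -0.16, and that of all genes tested was -0.0018. Il1b fell and Il1rn rose, so the cytokine and its antagonist were called in opposite directions.

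Il1b in mono&prog cells was 57.9 and 37.5 CPM with vehicle and 19.1 and 23.3 CPM with PM. The groups did not overlap. The log2 fold change was -1.22 ± 0.21, with an edgeR adjusted p of 0.0488, just under the threshold. The call was lost without PM 1, without PM 2 and with a replicate block, where the edgeR adjusted p reached 0.376. The fall was found in cluster 7, led by Saa3, Vcan and Clec4a3, at 146 and 96.0 CPM with vehicle and 43.4 and 53.7 CPM with PM. In that cluster the log2 fold change was -1.36 ± 0.22, with an edgeR adjusted p of 0.0188, beside 2.85% of 10546 genes called. Within cluster 7 the call of Il1b was lost without PM 1 and without PM 2, with edgeR adjusted p of 0.410 and 0.201. In cluster 6, led by Nrg1, Met and Ass1, Il1b was 12.2 and 11.6 CPM with vehicle and 11.4 and 9.41 CPM with PM, with an edgeR adjusted p of 0.709. Cluster 28, with 143 cells, held the most Il1b, at 488 and 184 CPM with vehicle and 280 and 530 CPM with PM, and these overlapped. It was 4.12% and 5.21% of the mono&prog cells with vehicle and 1.09% and 4.67% with PM. The part of that share in the fall was not tested. Cluster 7 was 55.2% and 50.5% of the mono&prog cells with vehicle and 44.7% and 40.3% with PM, and the fall was also present within it.

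Free neutrophil RNA bears on these levels, since neutrophils were 54.3% to 69.9% of the cells of a library. Transcripts of 10 neutrophil genes (among them S100a8, S100a9, Camp and Ngp) made up 24.0 and 8.77 per 1000 UMIs of cluster 7 with vehicle and 41.7 and 15.7 with PM. The groups overlapped on this measure, and its part in the fall of Il1b was not tested. Such sums do not separate free RNA from transcripts that the cells made themselves. Relative to these transcripts, Il1b in cluster 7 was 6.09 and 10.9 UMIs per 1000 with vehicle and 1.04 and 3.42 with PM. In T cells, which should lack Il1b, the same ratio lay at 0.878 and 1.80 for vehicle, and at 0.564 and 1.997 for PM. In cluster 6 the vehicle libraries had 0.793 and 0.683 and the PM libraries 0.429 and 0.663, under T cells of the same library each time. Cluster 7 stood above T cells in all 4 libraries and cluster 6 did not. In CPM, T cells held 51.1 and 72.6 of Il1b with vehicle and 36.1 and 50.9 with PM, lower without overlap. In erythroid&prog cells Il1b was 15.5 and 19.3 CPM with vehicle and 19.6 and 24.7 CPM with PM, higher without overlap, and in B cells the groups overlapped. The part of free RNA in the fall of Il1b in mono&prog cells was not tested. A list of 22 genes of handling stress had 12.6 and 11.7 UMIs per 1000 in cluster 7 with vehicle and 5.98 and 11.0 with PM. Both PM libraries were lower without overlap, the same direction as Il1b. The part of handling stress in the fall of Il1b was not tested.

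Il1rn in mono&prog cells was 9.30 and 8.38 CPM with vehicle and 19.5 and 19.5 CPM with PM, a log2 fold change of 1.10 ± 0.14 with an edgeR adjusted p of 0.0186. The call was lost without PM 1 and without PM 2, where the edgeR adjusted p reached 0.149. In cluster 7 it was 18.6 and 16.4 CPM with vehicle and 47.3 and 48.3 CPM with PM, a log2 fold change of 1.43 ± 0.17 with an edgeR adjusted p of 0.000855, and it was not called without PM 1 (edgeR adjusted p of 0.142). Relative to 1000 UMIs of the neutrophil transcripts, Il1rn in cluster 7 stood at 0.773 and 1.88 for vehicle, against 1.13 and 3.07 for PM. On that scale the groups overlapped. In T cells Il1rn was 7.93 and 9.90 CPM with vehicle and 17.2 and 23.3 CPM with PM, and in erythroid&prog cells it was 4.66 and 3.98 CPM with vehicle and 11.9 and 15.1 CPM with PM. Cluster 6 held 5.27 and 4.73 CPM of Il1rn with vehicle and 11.5 and 11.9 CPM with PM (log2 fold change 1.18 ± 0.19, edgeR adjusted p of 0.0305, beside 0.839% of all genes called, and 0.101 without PM 1), in no library above the level of T cells. Per 1000 neutrophil transcripts cluster 6 had 0.341 and 0.280 with vehicle and 0.431 and 0.838 with PM, where T cells had 0.136 and 0.245 for vehicle, against 0.268 and 0.912 for PM. Cluster 6 had a median of 24009 UMIs and T cells 3542, so their levels of free RNA in CPM need not be alike. The part of free RNA in the rise of Il1rn outside neutrophils was not tested.

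**Figure D5:**
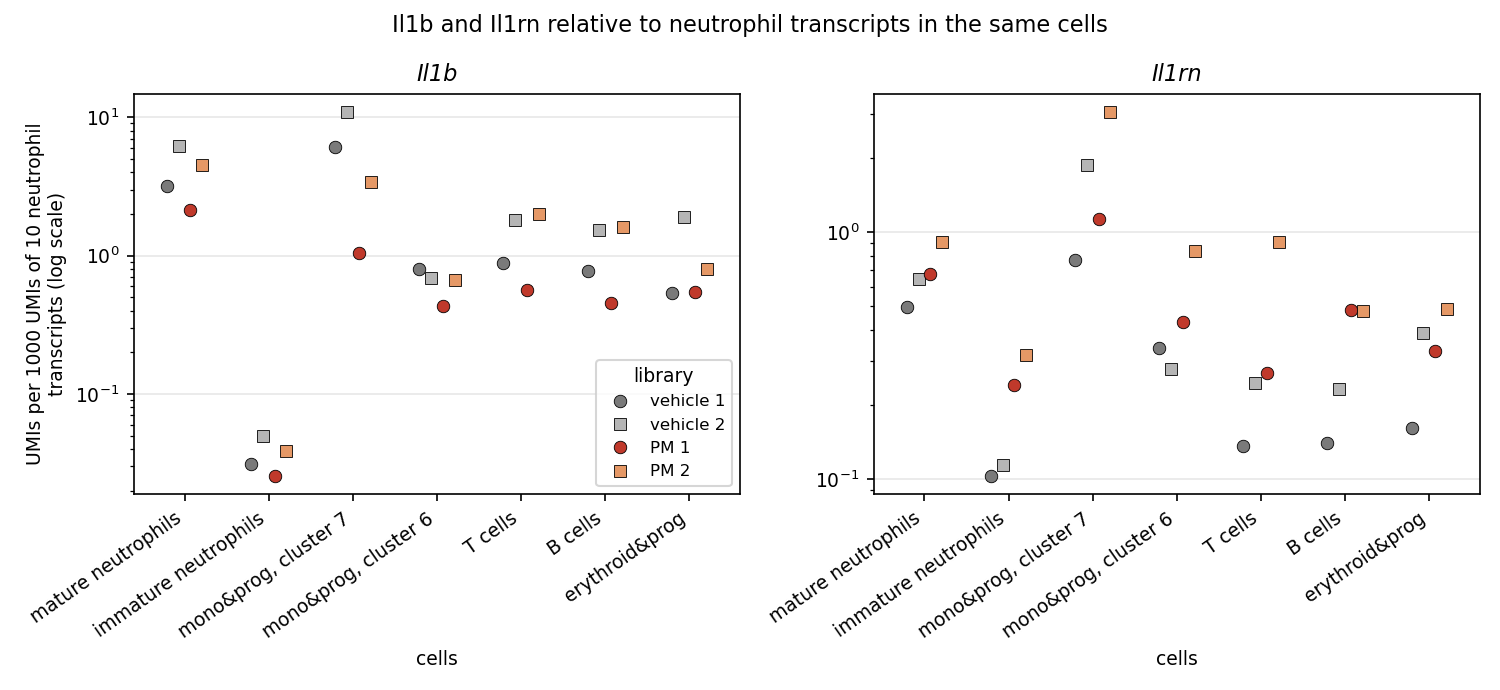
UMIs of Il1b (left) and Il1rn (right) per 1000 UMIs of 10 neutrophil transcripts in the same cells, on log axes, with 1 point per library. Il1b in cluster 7 lies at 6.09 and 10.9 for vehicle, against 1.04 and 3.42 for PM, above T cells of the same library in all 4 libraries.

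Nlrp3 and Casp1 had levels of their own in mono&prog cells. Nlrp3 was 35.2 and 29.7 CPM with vehicle and 20.5 and 30.5 CPM with PM, and the groups overlapped. Casp1 was 44.2 and 42.1 CPM with vehicle and 42.7 and 37.4 CPM with PM, with a log2 fold change of -0.14 ± 0.13 and an edgeR adjusted p of 0.668. Ptgs2 was 10.6 and 4.49 CPM with vehicle and 2.44 and 4.64 CPM with PM. Its log2 fold change of -1.21 ± 0.47 had an edgeR adjusted p of 0.285.

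The difference of the PM effect between neutrophils and mono&prog cells was tested itself, as an interaction with the library as a block, and 1 of 9 genes passed, beside 4.96% of 13388 genes. This was Il1rap, whose log2 fold change was lower in neutrophils by -0.65 ± 0.15, with an edgeR adjusted p of 0.0182. In mono&prog cells Il1rap was 12.4 and 9.32 CPM with vehicle and 10.4 and 11.9 CPM with PM, which overlapped. Leaving out single libraries changed how many of the 9 genes passed and how many of all genes did, and both were highest without vehicle 2. For Il1b the difference was 0.68 ± 0.67 with an edgeR adjusted p of 0.730, so its fall in mono&prog cells was not shown to differ from its change in neutrophils. For Il1rn the difference was -0.32 ± 0.15, with an edgeR adjusted p of 0.300.

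In macrophages 6 of the 10 genes were tested and none was called, beside 0 of 5633 genes, although 403 genes had an unadjusted p under 0.05 and DESeq2 called 1 gene and none of the 10. Il1b in macrophages was 332 and 76.2 CPM with vehicle and 109.5 and 214 CPM with PM. Vehicle 1 was the highest and vehicle 2 the lowest, so the mice of 1 group spanned the range. Il1b was called there under 2 alternatives in opposite directions, lower without vehicle 2 (log2 fold change -0.80, edgeR adjusted p of 0.0453) and higher at clustering resolution 2 (1.72, edgeR adjusted p of 0.0457). Il1rn was 33.5 and 64.6 CPM with vehicle and 116 and 135 CPM with PM, without overlap, with a log2 fold change of 1.42 ± 0.39 and an edgeR adjusted p of 0.312. The 610 macrophages had a median of 1026 UMIs, and neutrophil transcripts made up 85.7 and 171 per 1000 of their UMIs with vehicle and 200 and 180 with PM. Per 1000 of those transcripts Il1b was 3.88 in vehicle 1 and 0.447, 0.546 and 1.19 in the others, where T cells had 0.564 to 1.997. The part of neutrophil RNA in the levels of macrophages was not tested.

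In DC 8 of the 10 genes were tested and none was called, beside 0.32% of 10011 genes. Il1rn was 8.04 and 3.76 CPM with vehicle and 28.7 and 15.9 CPM with PM. These groups did not overlap, with a log2 fold change of 2.03 ± 0.44 and an edgeR adjusted p of 0.112. It was called in 4 of 15 alternatives: library size alone, the replicate block, and without vehicle 1 or PM 2. In HSPC, in eosinophil/basophil prog, in erythroid&prog, in B and in T cells the log2 fold change of Il1rn was 1.63, 1.59, 1.60, 0.74 and 1.17, and none was called, beside 0.211%, 0.159%, 0.172%, 6.29% and 0.373% of all genes. In CAR cells, the reticular stromal cells, Il1rn was 232 and 150 CPM with vehicle and 185 and 185 CPM with PM, a log2 fold change of -0.0014, and 0% of all genes were called. Neutrophil transcripts were 170 to 253 per 1000 UMIs of the 176 CAR cells. Plasma cells had 43.0 and 80.4 CPM of Casp1 with vehicle and 91.8 and 103 CPM with PM, which did not overlap and was not called, beside 0.063% of all genes.

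The other genes of the pathways were followed through lists, in the main setting only. Whether their calls hold under the alternative settings or with a library left out was not tested. Of 27 genes of the IL-1 family and its signaling, 22 were tested in neutrophils, where 2 rose and none fell, beside 5.24% of all genes called. These were Il1rl1, the receptor of IL-33, from 1.51 and 1.78 to 4.12 and 4.58 CPM, and Sigirr, an inhibitory receptor of the family, from 1.12 and 1.62 to 3.65 and 4.20 CPM. In mature neutrophils only Sigirr was called of 21 tested, beside 6.93% of all genes, from 0.0638 and 0.228 to 1.42 and 1.06 CPM. Mature neutrophils held 15671078 and 8770425 UMIs in the vehicle libraries, so these vehicle levels of Sigirr rest on few UMIs. The part of free RNA in its rise was not tested. None of 21 was called in mono&prog cells, none of 14 in macrophages and none of 18 in DC, beside 1.47%, 0% and 0.32% of all genes.

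Of 26 inflammasome and pyroptosis genes, 22 were tested in neutrophils and 2 were called, beside 5.24% of all genes. Aim2, a sensor of cytosolic DNA, rose from 6.51 and 8.29 to 14.2 and 13.7 CPM. Ninj1, which ruptures the membrane of dying cells, fell there from 19.0 and 24.4 to 13.6 and 15.8 CPM. In mature neutrophils 2 of 19 rose and 2 fell, beside 6.93% of all genes called. Casp8 rose from 15.5 and 13.1 to 25.4 and 23.9 CPM, and Nlrc4 from 0.255 and 0 to 2.05 and 1.35 CPM. With vehicle, Nlrc4 rested on few UMIs, and the part of free RNA in its rise was not tested. Nek7, a partner of NLRP3, fell from 37.0 and 44.4 to 23.3 and 26.3 CPM, and Ninj1 from 42.6 and 64.2 to 26.8 and 29.7 CPM. None was called of 25 tested in mono&prog cells, of 13 in macrophages and of 18 in DC, beside the same shares of all genes as above.

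Of 25 prostaglandin and leukotriene genes, 14 were tested in mature neutrophils, and 3 rose and 1 fell, beside 6.93% of all genes called. Ptgs1 (COX-1), the constitutive counterpart of Ptgs2, rose from 18.8 and 19.5 to 47.7 and 42.7 CPM, a log2 fold change of 1.26 ± 0.15 with an edgeR adjusted p of 0.00514. Lta4h, which makes leukotriene B4, rose from 73.6 and 64.6 to 113 and 110 CPM, and the prostaglandin D2 receptor gene Ptgdr from 0.191 and 0.570 to 3.38 and 3.57 CPM. With vehicle, Ptgdr rested on few UMIs, and the part of free RNA in its rise was not tested. Ptges2, a prostaglandin E synthase, fell from 19.7 and 17.8 to 5.87 and 9.95 CPM. Over all neutrophils Tbxas1, the thromboxane synthase, and Ptgdr rose and Ptges2 fell, of 17 tested, beside 5.24% of all genes called. In mono&prog cells 2 of 15 rose and 1 fell, beside 1.47% of all genes called. Ptgs1 rose from 16.8 and 20.2 to 37.4 and 32.1 CPM and Lta4h from 162 and 160 to 230 and 271 CPM. The prostaglandin E2 receptor gene Ptger4 fell there from 26.7 and 26.5 to 14.95 and 14.6 CPM. Of 22 handling stress genes, Jun and Hspa1b were called in neutrophils and in mature neutrophils, both higher. Jun in mature neutrophils was 126 and 166 CPM with vehicle and 251 and 323 CPM with PM.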

How the data were processed

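Droplet-based 3′ libraries were made from bone marrow of 4 mice. The authors deposited raw UMI counts per gene and barcode in filtered matrices, made with Cell Ranger 6.0.1 per the file headers. The submitters' processing notes name STAR and GRCm39 and the study's methods name GRCm38, so the build of the counts is not settled, and gene positions here are those of GRCm38. The methods give separate mice per library.

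Cells with at least 300 genes and under 20% mitochondrial UMIs were kept. Doublets were scored (scikit-image 0.26.0 thresholds) and kept in the main sums. Cells were clustered with scanpy 1.11.5 and leidenalg 0.10.2 (2500 variable genes without the 10 genes, 30 components, 15 neighbors, resolution 1). Clusters were named from markers, with naming thresholds set after the clusters were seen. Cells are not replicates, so counts were summed per library and cell type with at least 10 cells per library and tested in edgeR 4.0.16 (quasi-likelihood, TMM, Benjamini-Hochberg adjustment over all genes). SE is that of the log2 fold change. The test was checked on simulated counts. Shares of cells with a UMI were also computed after thinning to 1000 UMIs. DESeq2 1.42.0, other normalizations, filters, clusterings and blocks were alternatives. The numbers shared by vehicle and PM libraries were not shown to pair mice. A figure legend of the study speaks of independent experiments for the vehicle and PM samples. The labels do not say which library came from which experiment. If the numbers stand for experiments, the fit with a replicate block is the one that accounts for them.

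The 10 genes and the lists were chosen with earlier results of these data known. Genes named beyond the 10 were list members past the test, the leading genes of a cluster, or the 5 genes most like Il1b and Ptgs2.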

Additional observations from a re-analysis of the deposited data

Results flagged for a closer look

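Il1rap differed in its PM effect between neutrophils and mono&prog cells by the interaction test, by -0.65 on the log2 scale (edgeR adjusted p of 0.0182), and that call was lost with a replicate block, in DESeq2, without vehicle 1 and without PM 2. Il1r2 was lower in both PM libraries in neutrophils and higher in both in macrophages, so that the fold of PM over vehicle in neutrophils was 0.392 of that in macrophages, and 0.300 for mature neutrophils. In macrophages Il1r2 rested on 8 and 12 UMIs with vehicle and 17 and 18 with PM, with an edgeR adjusted p of 0.749. Per 1000 neutrophil transcripts it was 0.261 and 0.162 there with vehicle and 0.186 and 0.282 with PM, which overlapped. The difference between neutrophils and macrophages was not tested. Casp1 was lower in both PM libraries in neutrophils and higher in both in DC, with a ratio of the folds of 0.663, and of 0.575 for mature neutrophils. In DC the edgeR adjusted p of Casp1 was 0.735. The difference between neutrophils and DC was not tested either.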

How the results depend on the processing

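Over the alternatives that left out no library, 69 of the counts of genes called and shares stayed within 1.5 times or within the spread between mice, and 9 moved. With a replicate block, 1 of the 10 genes was called in mature neutrophils, 1 in mono&prog cells, 1 in macrophages and 1 in DC, and 0 passed the interaction. That block called 0.533% of 5633 genes higher and 0.213% lower in macrophages. In DC it called 0.759% of 10011 genes higher and 0.180% lower, and 136 of 13388 genes passed the interaction. At resolution 2 Il1b was called in macrophages. With library size alone 1 of the 10 genes was called in DC, beside 0.509% of all genes higher and 0.0899% lower. The interaction passed for 4 of the 9 genes tested with a filter on low counts, beside 1021 of 15402 genes. It passed for 2 of the 9 with doublets left out, beside 811 of 13318 genes. Among all genes, the replicate block called 171 in mature neutrophils against 687 without it, and 78 against 180 in mono&prog cells. DESeq2 called 180 genes higher and 196 lower in mono&prog cells. The correlation of same-numbered libraries was 0.00417 over all cells, -0.142 in neutrophils and -0.098 in mono&prog cells. A crossed pairing, chosen after seeing the data, called 4 of the 10 genes in mature neutrophils, 3 in mono&prog cells and 3 in neutrophils. Of all genes tested it called 6.45% higher and 3.77% lower in mature neutrophils, 2.73% and 1.87% in mono&prog cells, and 7.10% and 1.38% in neutrophils. One value reversed, Il1b in macrophages at resolution 2, with a log2 fold change of 1.72 that was itself called (edgeR adjusted p of 0.0457), and the cause was not tested.

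Leaving out each library in turn, the number of the 10 genes called ranged from 0 to 2 over all cells, 0 to 5 in neutrophils, 0 to 5 in mature neutrophils, 0 to 3 in mono&prog cells, 0 to 2 in macrophages, 0 to 2 in DC and 2 to 5 in the interaction. The difference in the share of neutrophils with an Il1b UMI ranged from -4.98 to 1.88 percentage points. The number of all genes called or passing also changed with the library left out, in each of these comparisons. The counts of the 10 genes alone therefore do not set them apart from other genes. An arm left with 1 library is assumed to vary like the other. With 2 mice a group, p-values rest on few degrees of freedom, and macrophages were limited by 610 cells of low depth.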
